A study of Saccharomyces cerevisiae with 8 samples.

Results

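The comparison described here is the response of wild-type Saccharomyces cerevisiae to 10 min of glucose. Its 4 arrays, of 8 in the series, were chosen by their sample titles: 2 arrays of cells given glucose and 2 arrays of the cells before it. The strain was BY4742, a haploid laboratory strain of mating type alpha. The first group had spent 3 days in YPD, a rich medium, and then received 2% glucose for 10 min. The other group had spent 3 days in YPD with nothing added. The remaining 4 arrays held a stb3-null strain in both conditions. They entered the same fit, so that all 8 arrays shared 1 estimate of the spread, and they served for 1 test of whether the strains responded differently. Each group held 2 arrays, called replicates A and B, and the labels do not state that these came from separate cultures. The p-values therefore rest on the scatter of these arrays alone, and that scatter may be technical. RNA came from whole cultures, so a change in the share of cells that hold a transcript cannot be told apart from a change in each cell.

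Yeast that has used up its sugar stops dividing, lives on ethanol and stored compounds and turns on genes for stress survival, recycling and respiration. Fresh glucose signals through protein kinase A, the Snf1 kinase and the TOR pathway, and within minutes transcription turns towards growth. Best known are the genes for ribosomes and for sugar metabolism, and the text below turns to other functions: uptake of nutrients, secretion, the cell wall, transcription factors, RNA decay, protein turnover, signalling and genes without a name.

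Levels are log2 signals as deposited, and a change is the mean log2 signal after glucose minus the mean at 3 days, so that a change of 1 is 2-fold. A gene was called when limma gave an adjusted p below 0.05. Of 5343 genes tested, 2670 (50%) were called, 1729 (32.4%) of them higher and 941 (17.6%) lower after glucose. The median change of all genes was 0.22, against 0.02 after quantile normalisation, 0.01 after median centring and -0.26 after scaling to a common trimmed mean, and the split of calls moved with it. Counts are therefore also given for genes called under all 4 scalings whose sign held in each of the 4 pairings of a glucose array with a 3-day array, which held for 968 genes higher (18.1%) and 932 lower (17.4%). Of the 941 lower calls 932 passed this rule, against 968 of the 1729 higher calls. For a lower call, passing it therefore adds little. Genes are named below only if they belong to that stricter set, unless stated otherwise. That rule itself keeps the 2 groups of a named gene from overlapping. Genes given with the words "stood at" did not pass it and were named after their values were seen. A share of calls in a list near those of all genes, 32.4% higher and 17.6% lower, is no result about that list. Counts under all 4 scalings are likewise to be read against 18.1% higher and 17.4% lower. Positions of lists are given as the distance of the list's median from the median of all genes. Replicates A and B of wild type differed with an SD of 0.549 after glucose and 0.577 at 3 days, and those of stb3-null with an SD of 0.278 and 0.261. The shared spread draws on both strains, so it is on average narrower than that of the wild-type pairs. Standard errors and adjusted p-values for wild type can therefore be too low. With only the wild-type arrays in the fit, 1845 genes were called. Genes of alpha cells fitted the label: all 4 markers lay above the filter level of 5.80 in both groups, and the alpha-factor gene MF(ALPHA)1 reached 13.20 and 12.71 after glucose and 11.43 and 11.56 at 3 days. Of 7 a-cell genes, 2 lay above that level on both arrays after glucose and 3 on both arrays at 3 days. The summed a-cell signal ranged over 8.93 to 9.14 after glucose and 9.04 to 9.19 at 3 days on the log2 scale, and that of the alpha-cell genes over 12.86 to 13.41 and 12.03 to 12.23. Of 4 marker genes that BY4742 carries deleted in whole or in part, URA3 and LYS2 lay below the filter level on all 4 arrays. LEU2 gave 6.18 and 6.17 after glucose, above that level, and 5.44 and 5.13 at 3 days. HIS3 gave 10.85 and 11.17 after glucose and 7.96 and 8.18 at 3 days, so that HIS3 did not read as absent in either group, nor LEU2 after glucose. STB3 itself gave 8.42 and 7.62 after glucose and 9.23 and 8.48 at 3 days (adjusted p = 0.0682). The deposited arrays had trimmed mean signals of 437 to 673, and the number of arrays limits the precision of every value.

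Share by share, the 52 gene lists spread from mostly higher to mostly lower. The highest share of higher calls was that of the nuclear and cytoplasmic exosome (73.3%), ahead of nucleobase and vitamin transporters (71.4%) and the vacuolar proton ATPase (66.7%). At the other end, 72.7% of the GID ubiquitin ligase list and 58.3% of the autophagy list were lower. Because 50% of all genes were called, only lists far from the shares of all genes stand out in the plot of calls per list.

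Permeases for nitrogen compounds, vitamins and anions were among the genes that rose. GAP1, the general amino acid permease gene, had log2 signals of 12.62 and 12.55 after glucose, against 10.45 and 10.48 at 3 days. Both pairs were tight and the groups lay far apart, a change of 2.12 (SE 0.26, adjusted p = 0.000168). MUP1, for the high-affinity methionine permease, gave 12.15 and 12.60 after glucose and 10.27 and 7.74 at 3 days. Its rise of 3.37 (adjusted p = 0.00197) leaned on the low B array at 3 days, and without that array it was 2.10. MMP1 and SAM3, which import S-methylmethionine and S-adenosylmethionine, rose by 1.88 and 1.96. SAM3 changed by 1.21 when all its probe sets were averaged. In the list of 21 tested amino acid permeases, 10 were higher and 4 lower, 6 and 4 of them under all 4 scalings, and the median lay 0.67 above that of all genes. AGP2, a membrane protein that regulates uptake of polyamines and carnitine, fell by 2.04 (adjusted p = 0.000248). The proline permease gene PUT4 (-1.27) and the branched-chain permease gene BAP2 (-1.21) were also called lower. PUT4 was not called without glucose replicate B (-0.72) or 3 days replicate A (-1.24), nor BAP2 without glucose replicate A (-0.75) or 3 days replicate B (-0.74), and 2 permeases were lower without 3 days replicate B or glucose replicate A.

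Transporters of ammonium, urea and peptides moved in both directions. MEP2, the high-affinity ammonium permease gene, had 12.60 and 12.39 after glucose and 10.60 and 10.59 at 3 days, with a gap many times the spread of either pair (change 1.90, adjusted p = 0.000509). OPT1, whose product takes up glutathione and oligopeptides, rose by 2.88 (SE 0.45) and DUR3, for urea and polyamines, by 2.27 (SE 0.54), though DUR3 was not called with array weights. PTR2, the di- and tripeptide transporter gene, rose by 2.38, or by 1.46 without 3 days replicate B. In contrast, ATO2 and ATO3, 2 related genes for putative exporters of ammonium, fell. ATO2 gave 9.20 and 9.24 after glucose and 11.36 and 11.63 at 3 days, a change of -2.28 (SE 0.23, adjusted p = 6.14e-05). ATO3 gave 7.53 and 8.16 after glucose and 9.48 and 11.01 at 3 days, a wider spread about a change of -2.40 (SE 0.43). Of 11 such transporters tested 5 were higher and 2 lower, the same numbers under all 4 scalings.

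Of 14 nucleobase and vitamin transporter genes, 10 were higher and none was lower, 5 of them under all 4 scalings. THI7, the thiamine transporter gene, showed 10.90 and 11.41 after glucose against 8.83 and 8.87 at 3 days, a 4.94-fold rise (adjusted p = 9.83e-05). VHT1, for biotin, and TNA1, for nicotinic acid, rose by 1.86 and 1.78. FCY2, for purines and cytosine, rose by 1.76, or by 1.15 without 3 days replicate B.

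Several genes of anion and proton transport rose as well. SUL2, a sulfate permease gene, had 10.10 and 10.95 after glucose, against 7.70 and 6.85 at 3 days. That is a change of 3.25 (SE 0.34, adjusted p = 7.25e-05), the largest of 18 tested phosphate, sulfate and ion transporters. PMA1, the proton pump that energises the plasma membrane, gave 12.35 and 12.64 after glucose and 10.76 and 10.10 at 3 days and rose 4.18-fold. PHO84 and PHO90, the high-affinity and a low-affinity phosphate transporter gene, rose by 1.59 and 1.32. KHA1, a putative potassium-proton antiporter gene, fell by 1.06 and TRK2, of potassium uptake, by 0.87. In this list 9 genes were higher and 2 lower, 5 and 2 under all 4 scalings, and without glucose replicate B the counts were 5 and 4.

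Inside the cell, most genes of polyphosphate synthesis and of the vacuolar proton pump were higher. VTC4, the catalytic subunit of the vacuolar polyphosphate polymerase, had 11.83 and 12.11 after glucose and 10.05 and 9.06 at 3 days and rose by 2.42 (adjusted p = 0.000415). VTC3 and VTC1 rose by 2.17 and 1.48, whereas VTC2 stood at 0.28 (adjusted p = 0.321). In the vacuolar transporter list that holds them, 4 of 19 genes were higher (21.1%, against 32.4% of all genes) and 1 lower. The numbers were the same under all 4 scalings, and the list's median lay 0.06 above that of all genes. Polyphosphate polymerase and the other role groups quoted with counts of their own were put together after the values were seen. The vacuolar proton ATPase list had 12 of 18 genes higher and none lower, 6 of them under all 4 scalings, and its median lay 0.70 above that of all genes. VMA3, the proteolipid ring subunit, rose by 1.80 and VMA7, of the peripheral V1 sector, by 1.70. The assembly factors PKR1 and VMA21, which act in the endoplasmic reticulum, rose by 2.43 and 1.43. PKR1 gave 10.81 and 10.73 after glucose and 8.74 and 7.94 at 3 days.

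Metal transporters showed no common direction, with 6 of 39 higher and 6 lower, 3 and 6 under all 4 scalings. Each 6 made up 15.4%, against 32.4% higher and 17.6% lower among all genes. FET3 and FTR1 encode the oxidase and the permease of high-affinity iron uptake. FET3 had 10.99 and 12.45 after glucose and 10.22 and 9.10 at 3 days, and FTR1 9.38 and 10.92 against 8.56 and 7.66. Both genes thus ran in parallel over the arrays, with changes of 2.06 and 2.04. Without glucose replicate B these were 1.33 and 1.27 and 3 metal transporters were higher. MRS4, a mitochondrial iron carrier gene, fell by 1.84 (adjusted p = 0.000292), the siderophore transporter gene ARN2 by 1.10 and PMC1, the vacuolar calcium pump gene, by 1.32. ZRC1, which loads zinc into the vacuole, rose by 1.23.

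In the list of drug and polyamine exporters, 7 of 20 genes were higher (35.0%, against 32.4% of all genes) and 2 lower. Under all 4 scalings these were 3 and 2, and 4 were lower without 3 days replicate A. AQR1, an exporter of short-chain acids and amino acids, gave 8.38 and 9.31 after glucose. At 3 days it gave 4.97 and 5.68, both below the filter level, so the size of its 3.52 rise is uncertain. TPO2, a polyamine exporter gene, rose by 2.88, or by 1.84 without 3 days replicate B, and PDR12, the exporter of weak organic acids, by 1.48. Of the other ABC family transporter genes in this list, not all of them for drug export, PDR15 fell by 1.74 and PDR11 by 1.34.

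**Figure D1:**
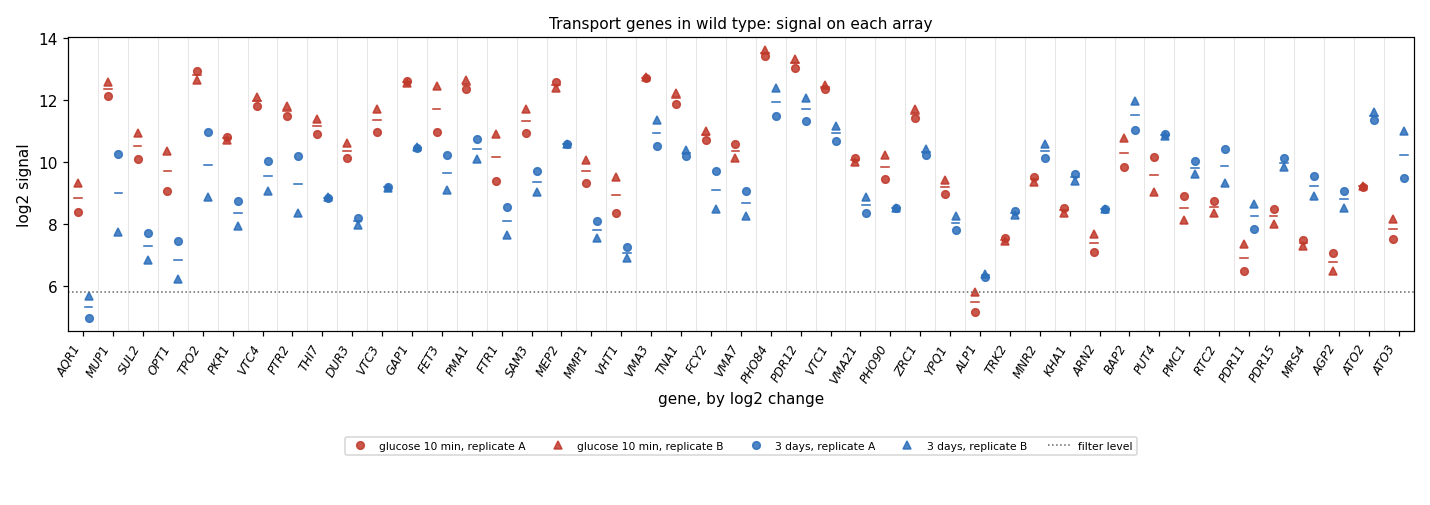
Log2 signal on each wild-type array for the transport genes named by rule, ordered by log2 change, with glucose 10 min (red) left of 3 days (blue) for each gene. Circles are replicate A, triangles replicate B, short lines group means, and the dotted line the filter level of 5.80. MUP1, TPO2 and PTR2 spread widely at 3 days, whereas GAP1 and MEP2 do not.

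In the secretory pathway, calls in the early steps were mostly higher and those at endosomes mostly lower. Proteins enter the endoplasmic reticulum with the help of the signal recognition particle, its receptor and the Sec61 channel. Of 30 tested genes for translocation and the signal peptidase, 18 were higher and none was lower, 14 of them under all 4 scalings, and the median lay 0.85 above that of all genes. SBH1, a subunit of the Sec61 channel, had 10.32 and 10.33 after glucose, against 8.99 and 8.34 at 3 days. The change was 1.66 (SE 0.30, adjusted p = 0.0016). SRP14, of the signal recognition particle, also rose by 1.66. By role, 7 of 8 genes of the particle and its receptor and 7 of 9 of the translocons were higher, 5 of each under all 4 scalings, against 1 of 4 for the signal peptidase and 1 of 6 for the Get pathway, which inserts tail-anchored proteins. Among 25 genes for folding and degradation in the endoplasmic reticulum 3 were higher (12%, against 32.4% of all genes). The 4 lower ones (16%) were near the 17.6% of all genes. Under all 4 scalings these counts were 2 and 4. The chaperone genes SCJ1 and CNE1 (calnexin) rose by 1.71 and 1.32. HRD1, the ubiquitin ligase that disposes of misfolded proteins, fell by 0.95 and its partner gene DFM1 by 1.46 (adjusted p = 0.000228).

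Of the mannosyltransferase list 60% and of the N-glycosylation list 51.9% were called higher, against 32.4% of all genes. VRG4 carries GDP-mannose into the Golgi, and GDA1 removes the GDP that is left over. VRG4 had 11.28 and 12.26 after glucose and 8.95 and 8.85 at 3 days, a 7.31-fold rise (adjusted p = 0.000107). GDA1 had 10.45 and 10.99 after glucose, against 8.59 and 8.23 at 3 days, and rose 4.96-fold. The mannosyltransferase genes KTR2 and MNN11 rose by 2.24 and 2.14. That list held 18 higher and 2 lower calls among 30 tested, 9 and 2 under all 4 scalings, with 10 higher without glucose replicate B. Both lower calls, MNT2 and PMT3, were lost without 3 days replicate B and without glucose replicate A. In N-glycosylation 14 of 27 were higher and 1 lower, with 8 higher without 3 days replicate B and 6 without glucose replicate B. Under all 4 scalings only 3 were higher and 1 lower, a share of higher calls below the 18.1% of all genes. OST4 and OST6, subunits of the oligosaccharyltransferase, rose by 1.36 and 1.28. For the glycolipid anchor of wall proteins, 8 of 23 genes (34.8%, near the share of all genes) were higher and none lower. Under all 4 scalings 3 were higher, also below the share of all genes: GPI11, GPI8 and GAA1, with 1.42, 1.24 and 1.04. Without glucose replicate B 4 anchor genes were higher.

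For 2 lists of vesicle genes between the endoplasmic reticulum and the Golgi the share of higher calls was 50%, against 32.4% of all genes. Of 26 COPII and exit genes 13 were higher and 2 lower, and of 20 COPI and ARF genes 10 and none. Under all 4 scalings these were 5 and 2, and 3 and none. Those higher counts were near or below the 18.1% of all genes under that rule. Without glucose replicate A, 6 COPI and ARF genes were higher. ARF1, the GTPase that recruits the COPI coat, had 13.59 and 13.71 after glucose against 11.25 and 11.46 at 3 days and rose by 2.30 (adjusted p = 0.000113). SEC12, which starts COPII coat assembly, rose by 1.71. The cargo factors SHR3, for amino acid permeases, and ERV14 rose by 1.22 and 1.18. EMP46, a lectin-like cargo receptor gene, went the other way, with 7.50 and 7.36 after glucose and 9.29 and 9.81 at 3 days (change -2.12, adjusted p = 0.000154). In the TRAPP tethering complex, TRS33, BET5, TRS65 and TRS31 rose by 1.19 to 1.56 whereas TRS23 fell by 1.06. COG5, of the Golgi tether COG, fell by 1.34. It was the 1 lower call among 8 COG genes, of which 2 were higher, none under all 4 scalings. The list of these tethers and the exocyst had 10 of 27 higher (37%, against 32.4% of all genes) and 2 lower. Under all 4 scalings these were 5 and 2.

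At endosomes the calls were mostly lower. PEP12, the syntaxin of the late endosome, gave 7.75 and 7.24 after glucose and 9.32 and 9.80 at 3 days. It fell by 2.06 (SE 0.25, adjusted p = 0.000162), and its Sec1-like partner gene VPS45 by 1.14. YPT53, a Rab GTPase gene of the endosome, lay at 5.12 and 4.0 after glucose, below the filter level, and at 7.59 and 7.57 at 3 days. SNARE and Rab genes together had 11 of 39 higher (28.2%) and 7 lower (17.9%), near the shares of all genes. Under all 4 scalings none was higher, against 18.1% of all genes. The same 7 (17.9%) were lower, near the 17.4% of all genes, and the list's median lay 0.14 above that of all genes. Without glucose replicate A 6 were higher, and without glucose replicate B 4 were lower. For endosomal sorting, which the ESCRT complexes and the retromer carry out, 10 of 25 genes were lower and 1 was higher, and the median lay 0.65 below that of all genes. Without 1 wild-type array 5 to 8 of these were lower, the fewest without glucose replicate B. HSE1, of the first ESCRT complex, fell by 1.15 and VPS17, of the retromer, by 1.08. VPS4, the ATPase that recycles the ESCRT proteins, stood at 0.74 (adjusted p = 0.0118) and was the gene called higher.

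In endocytosis, early adaptors that gather cargo had 4 lower and none higher of 8. YAP1801, a clathrin assembly gene, had 8.36 and 8.46 after glucose and 9.90 and 10.41 at 3 days and fell by 1.74, SYP1 by 1.50 and the epsin gene ENT2 by 0.97. The 7 genes of the actin-nucleating Arp2/3 complex lay between -0.73 and 0.14 and none was called, with up to 2 lower when 1 array was left out. Profilin (PFY1) rose by 1.24 (adjusted p = 0.00281). Of 40 genes in the endocytosis list 3 were higher and 6 lower, 1 and 6 under all 4 scalings, or 1 and 11 without glucose replicate A. CSR2, which encodes an arrestin-related adaptor of the ubiquitin ligase Rsp5, fell 9.55-fold, with 8.34 and 6.56 after glucose against 10.54 and 10.87 at 3 days. Another Rsp5 adaptor gene, BUL2, rose by 1.10.

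The GID ligase tags enzymes of sugar synthesis for destruction once glucose returns. Of 9 subunits 8 were lower, all 8 under all 4 scalings and with any 1 wild-type array left out, and their median was -1.92. GID11 had 7.76 and 7.17 after glucose and 9.56 and 10.00 at 3 days, VID30 7.10 and 6.41 against 8.98 and 9.10, and the conjugating enzyme UBC8 9.46 and 8.76 against 11.14 and 11.55. The changes were -2.32, -2.28 and -2.24. VID24, which recognises the substrates, rose, with 12.03 and 11.96 after glucose and 10.56 and 10.69 at 3 days (change 1.37, adjusted p = 0.00192).

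Many genes that build the cell wall were higher, and several that sense damage to it were lower. GAS1, whose product extends beta-glucan chains, had 13.58 and 13.73 after glucose, against 10.72 and 10.57 at 3 days. The 8.06-fold rise (adjusted p = 3.54e-05) was far outside the spread of either pair. UTR2, which links chitin to glucan, rose by 2.84, and KRE9 and KRE6, both needed for beta-1,6-glucan, by 1.96 and 1.86. Of 31 glucan and chitin genes 16 were higher and 1 lower, 8 and 1 under all 4 scalings, with 10 higher without glucose replicate B. The lower one, the septum chitin synthase gene CHS2 (-0.81), was not called without 3 days replicate B or glucose replicate B (-0.62 in both cases). Wall proteins and hydrolases had 14 of 42 higher (33.3%, against 32.4% of all genes) and 5 lower, and 5 and 5 under all 4 scalings. The yapsin protease gene YPS3 gave 11.34 and 11.24 after glucose and 9.09 and 8.90 at 3 days and rose by 2.30, and the glucanase gene EXG1, the mannoprotein gene CIS3 and UTH1 rose by 2.08, 2.03 and 1.72. DAN4, a mannoprotein gene of anaerobic cells, fell by 1.06. In wall stress signalling 6 of 20 genes were lower, under all 4 scalings, and 1 was higher. The sensor gene MTL1 had 6.35 and 6.31 after glucose and 8.18 and 8.33 at 3 days (change -1.92, adjusted p = 8.99e-05). Downstream of it, the Rho1 exchange factor gene ROM1 fell by 1.70 and the kinase gene MKK1 by 0.99.

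Transcription factors of starvation and stress were called lower more often than higher. Of 23 tested, 8 were lower under all 4 scalings, 1 was higher, and the median lay 0.68 below that of all genes. GIS1, a factor of late growth, had 8.15 and 7.65 after glucose and 9.94 and 10.00 at 3 days and fell by 2.07 (adjusted p = 0.000142). USV1, active on poor carbon sources, had 7.6 and 6.83 after glucose and 10.57 and 9.20 at 3 days and fell by 2.67. The repressor gene XBP1 fell by 3.24. YAP1, the regulator of oxidative stress genes, fell by 1.46. Respiratory and carbon factors had 9 of 24 lower and 3 higher, the same number under all 4 scalings. CAT8, which activates genes for growth without sugar, gave 8.66 and 7.20 after glucose and 10.30 and 10.95 at 3 days (change -2.70, SE 0.43). HAP4, the activator of respiration, and ADR1, of ethanol and fat use, fell by 2.17 and 1.64, or by 1.32 and 0.90 without glucose replicate B.

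One pair of paralogs moved apart. MTH1 and STD1 encode related proteins that help to repress hexose transporter genes when glucose is scarce. STD1 had 9.83 and 9.48 after glucose, against 6.91 and 6.83 at 3 days, a 6.89-fold rise (SE 0.20, adjusted p = 1.42e-05). MTH1 had 9.90 and 8.65 after glucose, against 10.88 and 11.46 at 3 days, a 3.72-fold fall (SE 0.38, adjusted p = 0.00291). The glucose repressor genes MIG2 and MIG3 were the other 2 carbon factors called higher. MIG2 gave 9.66 and 8.15 after glucose and 6.85 and 5.63 at 3 days, a change of 2.66 with an SE of 0.51, and its B array at 3 days lay below the filter level. MIG3 rose by 1.58, from a signal close to that level.

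Nutrient and biosynthesis regulators moved in both directions. Of 50, 14 (28%) were higher and 8 (16.0%) lower, near the shares of all genes. Under all 4 scalings 7 were higher and 8 lower, where all genes had 968 and 932. After quantile normalisation the counts were 8 and 12, where all genes had 1397 and 1256. PPR1, the activator of pyrimidine synthesis, had 8.19 and 8.73 after glucose and 6.32 and 5.99 at 3 days (change 2.31, adjusted p = 5.45e-05). BAS1, of purine and histidine synthesis, had 9.53 and 9.69 after glucose and 7.16 and 7.57 at 3 days (change 2.24, adjusted p = 0.00022). MET28 and MET32, of sulfur metabolism, rose by 2.00 and 1.87. On the other side, TOS8 fell by 1.91 and SUT1, a factor of sterol uptake, by 1.18. Of 11 regulators of ribosomal genes, 2 were higher (18.2%, against 32.4% of all genes) and 1 lower, the same under all 4 scalings, and 8 were not called. IFH1, the coactivator of ribosomal protein genes, gave 10.36 and 10.87 after glucose and 8.27 and 8.52 at 3 days and rose by 2.22. TOD6, a repressor of ribosome biogenesis genes, rose by 1.38, and CRF1, a corepressor of ribosomal protein genes, fell by 1.60, or by 1.03 without 3 days replicate B. Cell cycle and shape factors had 6 of 24 lower under all 4 scalings, among them ASH1 (-1.45), RME1 (-1.34) and SWI5 (-1.06), and 3 higher, none of them under all 4 scalings. Zinc cluster and related factors had 7 of 26 higher (26.9%) and 4 lower (15.4%), near the shares of all genes, and 4 and 4 under all 4 scalings. TEA1 and ASG1 rose by 1.70 and 1.44, and EDS1 and ACA1 fell by 1.40 and 1.34.

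**Figure D2:**
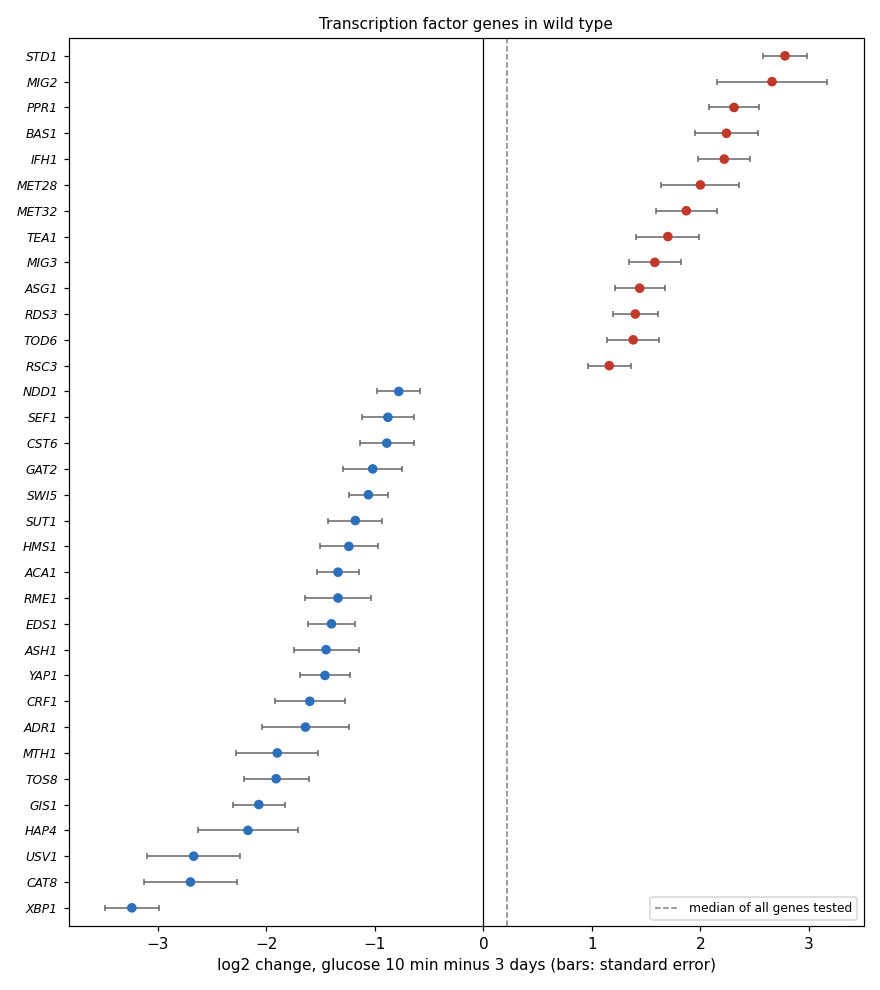
Log2 change (glucose 10 min minus 3 days) with its standard error for the transcription factor genes named by rule, in red where higher and blue where lower after glucose. The dashed line is the median of all genes, 0.22. STD1 is at the top with 2.78 and XBP1 at the bottom with -3.24.

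For the general machinery of transcription the shares of higher calls were near or somewhat below the 32.4% of all genes. They were 28.6% for RNA polymerase II and its general factors, 25.5% for Mediator, SAGA and TFIID, and 29.6% for chromatin genes. Lower calls made up 4.76%, 13.7% and 5.56%, against 17.6% of all genes. The medians of these lists lay within 0.07 of that of all genes. Among 42 genes of RNA polymerase II and its general factors 12 were higher and 2 lower, 6 and 2 under all 4 scalings. RPB9, a subunit tied to transcript fidelity, had 9.87 and 9.64 after glucose and 7.83 and 7.54 at 3 days and rose by 2.07 (adjusted p = 9.98e-05). RPB2, a catalytic subunit, rose by 1.71, the elongation factor gene SPT4 by 1.64 and the kinase cyclin gene BUR2 by 1.24. CCL1, the cyclin of TFIIH, fell by 1.27. Mediator, SAGA and TFIID genes had 13 of 51 higher and 7 lower. Under all 4 scalings these were 1 and 7, where all genes had 18.1% and 17.4%. Without glucose replicate B 8 were higher. Chromatin genes had 16 of 54 higher and 3 lower, 4 and 3 under all 4 scalings, with 10 higher without glucose replicate B. SET2, the histone H3 methyltransferase of transcribed genes, gave 8.50 and 8.64 after glucose and 6.86 and 6.68 at 3 days (change 1.80, adjusted p = 8.86e-05). HDA1, a histone deacetylase gene, rose by 1.19. The 3 genes that fell, PHO23 (-1.51), SDS3 (-1.02) and HST2 (-1.02), also belong to deacetylase complexes or encode one.

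In RNA decay, most genes of the exosome, which degrades RNA from its 3' end, were higher. In the exosome list 22 of 30 genes were higher and 2 lower, 17 and 2 under all 4 scalings, and the median lay 0.86 above that of all genes. All 8 calls in the core of 10 subunits were higher under all 4 scalings, with a median change of 1.40. RRP46, the core gene with the largest change, had 10.19 and 10.41 after glucose and 8.13 and 8.64 at 3 days, a change of 1.92 (adjusted p = 0.000206), while CSL4 stood at 0.17 (adjusted p = 0.684). Both were named after their values were seen. MTR4, the helicase that feeds RNA to the nuclear exosome, had 9.08 and 9.81 after glucose, against 6.59 and 7.03 at 3 days, a 6.21-fold rise (adjusted p = 6.75e-05). Its TRAMP partner gene AIR1 had 9.18 and 9.59 after glucose and 7.22 and 7.29 at 3 days and rose 4.38-fold. The paralog AIR2, named after its values were seen, stood at -0.50 (adjusted p = 0.0628). The exonuclease-like gene REX4 rose by 3.48, and RAI1, the partner of the nuclear 5' exonuclease Rat1, by 1.95. Many of these factors also process ribosomal RNA. The cytoplasmic Ski complex, which guides mRNA to the exosome, had all 4 genes higher, by 0.75 to 1.08, and 2 of them under all 4 scalings. Nrd1 and Nab3 end short transcripts and hand them to the exosome, and NAB3 fell by 0.92 (adjusted p = 0.00408). NRD1 was called lower at -0.58, and was not called without glucose replicate A (-0.51), glucose replicate B (-0.65) or 3 days replicate A (-0.42).

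Decapping opens decay from the 5' end. Of 8 genes for the decapping enzyme, its activators and Xrn1, 2 were higher and none under all 4 scalings, and their median change was 0.34, with 1 or 2 higher when 1 array was left out. The LSM ring, which binds trimmed mRNA ends and also serves splicing, had 6 of 8 higher, 2 of them under all 4 scalings, with LSM5 up by 1.45 and LSM3 by 1.21. DCS2, a regulator of cap breakdown in starved cells, had 9.39 and 9.11 after glucose and 10.86 and 11.55 at 3 days and fell by 1.96 (adjusted p = 0.000524). The Ccr4-Not complex had 3 of 9 higher, near the 32.4% of all genes, and a median change of 0.31, with none called under all 4 scalings. NGL3, related to the deadenylase gene CCR4, fell by 2.09 (8.38 and 7.51 after glucose, 9.93 and 10.14 at 3 days). In nonsense-mediated decay 1 of 7 genes was higher, NMD4, with 1.38, from a signal near the filter level.

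RNA-binding regulators had 14 of 33 higher and 1 lower, 6 and 1 under all 4 scalings. PUF6, a Puf-family protein that represses ASH1 mRNA and takes part in ribosome assembly, gave 10.48 on both glucose arrays and 7.54 and 7.07 at 3 days, a 9.03-fold rise. TMA46, VTS1 and SRO9 rose by 2.08, 2.04 and 1.70. RIM4, known from meiosis, fell by 1.44 (adjusted p = 0.000756).

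For splicing (35.3%) and for cleavage, polyadenylation and export (29.4%) the share of higher calls was near the 32.4% of all genes, whereas for nuclear pore and transport receptor genes it was 52.8%. Of 68 splicing genes 24 were higher and 4 lower, 10 and 4 under all 4 scalings. The helicase gene PRP43 and SNU13, both of which also act in ribosome assembly, rose by 3.78 and 3.23. SME1, an Sm protein, and MSL1 rose by 1.42 and 1.46, and SLU7, of the second splicing step, fell by 0.95. DBP5, the helicase that releases exported mRNA, had 11.13 and 11.17 after glucose and 9.38 and 9.43 at 3 days and rose by 1.74 (adjusted p = 0.000292). Cleavage, polyadenylation and export genes as a list had 10 of 34 higher and 2 lower, or 2 and 2 under all 4 scalings, and 6 were higher without glucose replicate B. Nuclear pore genes and transport receptors had 28 of 53 higher and 2 lower, 14 and 2 under all 4 scalings. Within them, the Ran cycle that powers nuclear transport had 5 of 8 genes higher, each under all 4 scalings. GSP1, the Ran GTPase, gave 12.34 and 12.20 after glucose and 9.80 and 9.53 at 3 days, and its binding partner YRB1 12.79 and 12.78 against 10.51 and 10.06. Changes of 2.60 and 2.50 exceeded the spread of each pair several times over. KAP123, an import receptor of ribosomal proteins, rose by 2.20. Of 30 nucleoporin genes 16 were higher and 2 lower, 4 and 2 under all 4 scalings, and with 1 wild-type array left out 9 to 17 were higher.

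Most autophagy genes fell. Of 36 tested, 21 were lower (58.3%, against 17.6% of all genes) and 2 were higher. All 21 were lower under all 4 scalings, a rule that nearly all lower calls pass. The median lay 1.16 below that of all genes. With 1 wild-type array left out 16 to 21 were lower. ATG39, the receptor for the nuclear envelope, had 7.72 and 7.49 after glucose, against 10.23 and 10.22 at 3 days, a 6.15-fold fall (adjusted p = 2.7e-05). ATG32, the receptor for mitochondria, had 7.64 and 7.68 after glucose and 9.14 and 9.64 at 3 days and fell 3.32-fold. ATG3 and ATG4, which attach and release the membrane tag Atg8, fell by 2.02 and 1.74. Among 12 genes of the initiating Atg1 complex and the cargo receptors 11 were lower, the exception being ATG11 with -0.18 (adjusted p = 0.606). ATG27, a membrane protein of the vesicle source, rose by 1.43, or by 0.92 without 3 days replicate B.

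Vacuolar enzymes and ubiquitin ligases changed in smaller numbers. Of 17 vacuolar hydrolases 4 were lower (23.5%, against 17.6% of all genes) and 1 higher (5.88%, against 32.4%). Under all 4 scalings these were 4 and none. RNY1, a ribonuclease, had 6.83 and 6.38 after glucose and 8.77 and 9.46 at 3 days and fell by 2.51 (adjusted p = 9.5e-05). The mannosidase gene AMS1 and the trehalase gene ATH1 fell by 1.68 and 1.30. Ubiquitin ligases and proteases had 7 of 52 higher (13.5%) and 8 lower (15.4%, near the share of all genes), 1 and 8 under all 4 scalings. The F-box gene SAF1 fell by 2.02 and the protease gene UBP15 by 1.27, whereas UBP3, another ubiquitin protease gene, rose by 1.80.

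Protein kinases and phosphatases were called lower more often than higher. Of 59 kinases outside the cell cycle 23 (39.0%) were lower, against 17.6% of all genes, all under all 4 scalings, and 13 (22.0%) higher, 3 under all 4 scalings. Without glucose replicate B these were 16 and 7. PRR2 gave 6.72 on both glucose arrays and 9.75 and 10.26 at 3 days, a 9.75-fold fall (adjusted p = 1.36e-05). VHS1 had 7.45 and 7.0 after glucose, against 10.02 and 9.83 at 3 days, a 6.50-fold fall. KIN82, which activates lipid flippases, and NNK1 fell by 2.56 and 1.98. YCK2, a casein kinase of the plasma membrane that takes part in glucose sensing, and KIN2, of the exocytic pathway, rose by 1.26 and 1.22. Phosphatases and their regulators had 16 of 54 lower and 7 higher, 16 and 4 under all 4 scalings. Among regulators of the type 1 phosphatase 6 of 7 were lower, with a median change of -1.88. GIP2 had 6.21 and 6.0 after glucose and 8.99 and 9.06 at 3 days, a 7.57-fold fall (SE 0.18 on the log2 scale, adjusted p = 1.35e-05). GAC1, which directs the phosphatase to glycogen synthase, fell by 2.32 and REG2 by 2.04, while REG1 stood at -0.45 (adjusted p = 0.178). IGO2, of the Rim15 pathway of quiescent cells, fell by 1.95. YVH1, a phosphatase with a part in ribosome assembly, rose by 2.87 and SAP185, a partner of the phosphatase Sit4, by 1.98. CNB1, the regulatory subunit of calcineurin, rose by 1.22.

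Genes known only by an open reading frame name were lower more often than higher. Of 449 with a probe set of their own 371 were tested, and 78 lay below the filter. Among those tested, 86 (23.2%) were higher and 102 (27.5%) lower, 46 and 102 under all 4 scalings. The reference annotation (assembly R64) shows 341 of them overlapping no other gene, with 81 higher and 94 lower, and 30 overlapping one, with 5 higher and 8 lower. None of the 20 named next overlaps another gene there.

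YDR222W was the open reading frame that rose most. It had 11.60 and 11.54 after glucose, against 7.72 and 7.0 at 3 days, a change of 4.21 (SE 0.32, adjusted p = 1.92e-05). Of its neighbours, GTB1 stood at -0.18 (adjusted p = 0.678) and CRF1 fell by 1.60. YML018C, YBL028C and YCR087C-A rose by 3.30, 3.16 and 2.94. YCR087C-A was tight within its pairs, with 9.51 and 9.33 after glucose and 6.53 and 6.44 at 3 days. YBL028C gave 9.73 and 9.99 after glucose and 6.57 and 6.84 at 3 days. YJR124C and YOR283W rose by 2.58 and 2.44. YNL162W-A gave 8.44 and 9.16 after glucose and lay below the filter level at 3 days (5.40 and 5.58), so that the size of its rise is uncertain. YBL081W, with 7.58 and 8.56 after glucose and 5.81 and 5.11 at 3 days, is uncertain in size through its B array at 3 days. YKL068W-A spread widely at 3 days, with 8.28 and 5.79, and had 10.64 and 11.80 after glucose (change 4.18, SE 0.66). YDR034C-A rose by 3.36 by its brightest probe set and by 0.59 when its probe sets were averaged.

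Among those that fell, YMR206W was even within its pairs, with 7.62 and 7.50 after glucose and 10.72 and 10.84 at 3 days, a 9.32-fold fall (adjusted p = 1.35e-05). YDL218W had 6.18 and 7.28 after glucose and 9.73 and 11.53 at 3 days, a larger fall of 3.90 with an SE of 0.52. YKL107W had 7.02 and 7.26 after glucose and 9.48 and 9.79 at 3 days (change -2.50). YNL194C fell by 2.72, and its neighbour YNL195C by 1.53 (adjusted p = 0.00312). YMR084W fell by 2.46, and its neighbour YMR085W by 1.94 (adjusted p = 6.58e-05), both neighbours being in the stricter set but named for their position. YGR067C, YDL199C, YJL163C and YOR186W fell by 2.24 to 2.39, and YGR130C by 2.48.

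**Figure D3:**
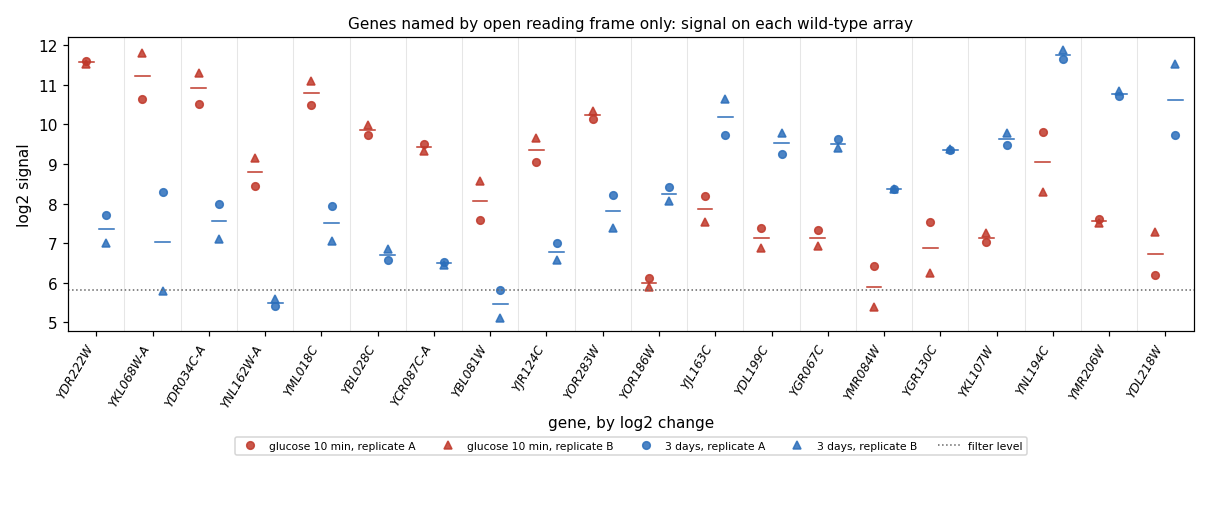
Log2 signal on each wild-type array for the 20 genes named by rule among those known only by an open reading frame name, ordered by log2 change, with glucose 10 min (red) left of 3 days (blue). Circles are replicate A, triangles replicate B, short lines group means, and the dotted line the filter level of 5.80. YKL068W-A at 3 days has the widest pair.

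Some of the genes that moved most over the whole array fall outside the lists. Those described here are a selection, and other genes moved further, among them AAH1 (5.50), SAM1 (4.64), RGI2 (-4.16) and SPG1 (-3.68). GRX8, a glutaredoxin gene, had 10.47 and 10.22 after glucose and 6.67 and 5.90 at 3 days and rose 16.7-fold (adjusted p = 1.35e-05). NIP7 and NOP58, of ribosome assembly, rose by 3.82 and 4.40. MPC3, a subunit of the mitochondrial pyruvate carrier of respiring cells, had 8.71 and 8.21 after glucose, against 11.81 and 12.09 at 3 days, and fell 11.2-fold (adjusted p = 1.74e-05). RTN2, a reticulon gene, had 7.73 and 6.20 after glucose and 10.11 and 10.78 at 3 days and fell by 3.48 (SE 0.44). YIG1, linked to glycerol synthesis, gave 6.93 and 6.58 after glucose and 10.09 and 9.98 at 3 days, a change of -3.28 with an SE of 0.22. ISF1, linked to respiratory growth, fell by 3.21 (SE 0.39).

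The wild-type changes were set against those of stb3-null by a test of the difference itself. It called 0 of 5343 genes (0.00%), with 369 at an unadjusted p below 0.05 and a lowest adjusted p of 0.0858. For GIP2 the wild-type change minus the stb3-null change was -0.83 (adjusted p = 0.665), and for STD1 it was 0.08 (adjusted p = 0.966). Leaving out 1 array gave calls in some cases. Without 3 days replicate A the test called ATC1 (1.98), IMD4 (2.64), PXA1 (-2.44), SLZ1 (-2.23) and SNR54 (2.08), each at an adjusted p of 0.0494. Without glucose replicate A it called YMR244W (3.62, adjusted p = 0.00452). None of these 6 genes passed with all 8 arrays. With 2 arrays per group and wide wild-type pairs, a p above the threshold does not show that the strains responded alike.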

How the data were processed

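RNA of 8 Affymetrix yeast arrays was analysed from the deposited value table, whose values the authors gave on a log2 scale, as read from their range of 0 to 14.55. MAS5 is named in the submitters' processing notes, and how arrays were scaled to each other is not stated in the labels or headers. Of 9275 probe sets, 6504 had 1 gene in the platform annotation, 328 several and 2443 none. A gene was represented by its probe set with the highest mean signal, and 5343 of 5656 genes passed a filter at 10% of the mean trimmed mean signal (log2 5.80). No pseudocount was added. The 4 group means were estimated by limma 3.58.1 (R 4.3.3, eBayes with a trend), and p-values were adjusted by Benjamini-Hochberg over all genes tested. Named genes were called under all 4 scalings with 1 sign in all 4 pairings: up to 4 rises and 4 falls per list, 10 and 10 among genes with an open reading frame name, and 15 and 15 over all genes, of which some are left out. The comparison and the gene lists were chosen with earlier results of these data known, and the role groups after their values were seen. Alternatives covered the scaling, the filter, a pseudocount, the probe set rule, array weights, the variance trend, the arrays fitted, a replicate block and each array left out, of which the removal of a stb3-null array for the wild-type counts was added after seeing the data. Replicates carry only the letters A and B. The differences between A and B correlated at 0.22 between the wild-type groups and 0.13 between the stb3-null groups. Nothing in the labels says that a letter marks a shared culture or day, so the letters were not taken to pair the samples.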

Additional observations from a re-analysis of the deposited data

How the results depend on the processing

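The scaling set the balance of calls. Against 1729 genes higher and 941 lower, quantile normalisation gave 1397 and 1256, median centring 1348 and 1276, and a common trimmed mean 1004 and 1784. With only the wild-type arrays in the fit 1845 genes were called, 1230 higher and 615 lower. That fit has fewer arrays and lacks the stb3-null pairs, whose replicates differed less. How far each bears on the count was not tested. The stricter filter called 2019 genes and array weights 2039. With 1 array left out, 2221 to 2622 genes were called, 1460 to 1695 higher and 761 to 928 lower, and the test of the difference between strains called 0 to 5. With the replicate letter as a block, 2660 genes were called, 1706 higher and 954 lower, and the difference between strains gave 0 calls, with 366 at an unadjusted p below 0.05. Of 323 named genes, 283 were called in every alternative run for them, 40 were not called in at least 1, and none changed sign. The most were lost with only the wild-type arrays (29) and without glucose replicate B (26), and the replicate block lost 6. The cause was not tested. Promoter motif searches were not run. Signals near the filter level leave the size of a change uncertain.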

Other observations

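Lipid genes moved both ways. Of 53 fatty acid and phospholipid genes 19 were higher (35.8%, against 32.4% of all genes) and 5 lower, 12 and 5 under all 4 scalings. PAH1, the phosphatidate phosphatase that steers lipids into storage fat, had 7.65 and 7.61 after glucose, against 9.97 and 10.47 at 3 days, a 6.02-fold fall (adjusted p = 3.28e-05). CDS1, which uses the same substrate for membrane phospholipids, had 9.26 and 9.51 after glucose and 7.53 and 7.33 at 3 days and rose 3.88-fold. ELO3, a fatty acid elongase gene, rose by 2.96 and INM1, of inositol synthesis, by 2.00. In sphingolipid synthesis LCB1, for the first enzyme, rose by 2.05, while SUR1, YPC1 and ORM2 fell by 2.11, 1.78 and 1.31. Of 25 genes there 8 were higher and 5 lower, near the shares of all genes, and 1 and 4 under all 4 scalings. Without glucose replicate B 3 were higher and 3 lower, and without 3 days replicate A 5 and 3.

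Vitamin and cofactor synthesis had 20 of 50 genes higher (40%, against 32.4% of all genes) and 5 lower, 8 and 5 under all 4 scalings, and 13 and 8 after quantile normalisation. BNA3, CAB4 and the spermine synthase gene SPE4 rose by 2.64, 1.43 and 2.14. THI21, of thiamine synthesis, fell by 1.01, and THI4 fell by 2.28, or by 1.42 without 3 days replicate B. In heme and iron-sulfur synthesis 9 of 33 were higher (27.3%) and 4 lower, 4 and 3 under all 4 scalings. The balance turned to 7 and 8 after quantile normalisation and 6 and 11 after median centring, and was 7 and 7 without 3 days replicate B. There, YAH1, the mitochondrial ferredoxin gene, rose by 1.89 and NAR1 fell by 1.04. DNA repair had 12 of 57 higher (21.1%) and 11 lower (19.3%, near the 17.6% of all genes). Under all 4 scalings these were 2 and 11, where all genes had 18.1% and 17.4%. OGG1, which removes oxidised guanine, rose by 1.63, and RAD4, YKU70 and MAG1 fell by 1.54, 1.33 and 1.12. Without glucose replicate A 8 repair genes were higher. Among 32 pheromone response genes 7 were higher (21.9%, against 32.4% of all genes) and 6 lower (18.8%, near the 17.6% of all genes). Under all 4 scalings these were 3 and 5. STE14 and RCE1, which process a-factor and Ras, rose by 1.35 and 1.33, and AFR1 and PRM4 fell by 2.12 and 1.80.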
